A study of Mus musculus with 2 samples.

Results

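The 9 genes Ms4a1, Fcer2a, Fcmr, Bank1, Cd22, Fcrl1, Fcrla, Cr2 and Ltb, which encode surface and signalling proteins of mature B cells, were read by their symbols among the 27998 gene identifiers measured. All 9 symbols were found, each with 1 identifier. The cells were sorted from hindlimb muscle of Fsp1-Cre:R26R-EYFP mice as YFP+CD11b- cells, and single-cell RNA libraries were made on the 10x Genomics droplet system. The day 28 library was made 28 days after hindlimb ischemia surgery, and the day 0 library came from mice without surgery. In both groups Cre recombinase was under the Fsp1 (S100a4) promoter, and it turns on a permanent YFP mark at the R26R-EYFP allele, which daughter cells inherit. The label therefore marks any cell with a history of that promoter's activity, blood cells included. Ages and numbers of animals are not given in the sources used here.

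B cells mature through pro-B, large pre-B and small pre-B stages in the bone marrow, where the surrogate light chain and then the rearranged antibody chains are tested. Mature B cells in lymphoid tissue carry a complete B cell receptor whose signal is set by coreceptors, inhibitory receptors and scaffold proteins. Activated cells may enter germinal centres or become plasma cells, which secrete antibody and shut down much of the surface programme.

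Each group had 1 library, so no difference has a replicate check and no test between conditions is possible. The day 28 library held 2653 barcodes with a median of 12265 UMIs (molecule counts), and the day 0 library 2668 barcodes with a median of 4844. No barcode of the day 28 library had under 4175 UMIs and none of the day 0 library under 3001, and 13 barcode sequences occurred in both libraries. Levels are given as CPM, a gene's UMIs per 1000000 UMIs summed over the cells of a class, with an exact 95% Poisson interval. All intervals cover counting error only.

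The 9 genes were left out of the clustering that defined the stages. Pro-B and large pre-B-like cells (130 at day 28 and 70 at day 0) carried Vpreb1 at 1244 and 2075 CPM. Small pre-B-like cells (107 and 124) carried Vpreb3 at 2624 and 3025 CPM with little Dntt (2.5 and 0 CPM). Of their markers, Vpreb3, Rag2 and Cd24a were higher than in pro-B and large pre-B-like cells. Rag1 (14.8 and 13.4 against 30.7 and 46.1 CPM) and Cd93 (69.0 and 72.4 against 93.3 and 108 CPM) were lower. Of the pro-B and large pre-B markers, Il7r (181 and 173 against 83.5 and 75.1 CPM) and Sox4 were higher. The others, Vpreb1, Vpreb2, Igll1, Dntt and Erg, were lower. Mature B-like cells numbered 33 at day 28 and 272 at day 0, with H2-Ob at 193 and 421 CPM. Germinal centre B-like cells (0 and 62) carried Rgs13 at 161 CPM, and plasma cell-like cells (84 and 27) carried Jchain at 74184 and 89754 CPM. The plasma cell-like cluster was also led by the myeloid genes S100a8 and Elane. A B cell cluster found only among the barcodes of day 0 (0 of 2580 cells at day 28 and 66 of 2610 at day 0) had near-equal small pre-B and mature B scores, carried Vpreb3 at 2799 CPM and was left unnamed. Fibroblast-like cells numbered 4 at day 28 and 12 at day 0, and no cluster took a skeletal muscle or endothelial name. The names were rebuilt here, and the margin that left this cluster unnamed was set after seeing the data.

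Promoter sequence is shown for 3 genes whose level was higher in mature B-like than in small pre-B-like cells and for Fcrla, which ran the other way. Each is the 250 bases before the RefSeq gene start, read 5′ to 3′ along the gene's strand, on GRCm38.p6. Bank1 lies at chr3:136326067-136326316 (minus strand), Fcrl1 at chr3:87376137-87376386 (plus strand), Cr2 at chr1:195176720-195176969 (minus strand) and Fcrla at chr1:170927584-170927833 (minus strand). Capitals mark a motif core on either strand, which is GAGGAA for ETS factors, for E-box factors CAGGTG, and for EBF factors CCCNNGGG.
Bank1: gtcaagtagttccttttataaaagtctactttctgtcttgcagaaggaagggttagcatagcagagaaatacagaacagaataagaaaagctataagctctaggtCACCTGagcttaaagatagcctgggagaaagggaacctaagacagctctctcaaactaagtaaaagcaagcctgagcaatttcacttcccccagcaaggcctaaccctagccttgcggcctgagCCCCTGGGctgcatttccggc
Fcrl1: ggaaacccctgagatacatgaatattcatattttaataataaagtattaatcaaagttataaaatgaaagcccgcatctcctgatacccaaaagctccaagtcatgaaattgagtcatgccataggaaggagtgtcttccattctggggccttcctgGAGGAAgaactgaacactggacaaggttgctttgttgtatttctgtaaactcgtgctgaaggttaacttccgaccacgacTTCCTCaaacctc
Cr2: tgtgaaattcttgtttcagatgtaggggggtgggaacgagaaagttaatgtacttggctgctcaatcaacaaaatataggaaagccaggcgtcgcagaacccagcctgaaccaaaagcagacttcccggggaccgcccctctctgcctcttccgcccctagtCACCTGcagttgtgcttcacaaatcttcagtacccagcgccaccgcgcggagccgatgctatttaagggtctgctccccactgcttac
Fcrla: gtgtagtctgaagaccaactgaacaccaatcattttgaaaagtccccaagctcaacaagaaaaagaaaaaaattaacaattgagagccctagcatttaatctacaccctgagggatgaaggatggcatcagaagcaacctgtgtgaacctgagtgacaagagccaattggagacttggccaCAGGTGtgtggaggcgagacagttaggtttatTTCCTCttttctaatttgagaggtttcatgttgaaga
The search also covered ATGCAAAT, an octamer core, on both strands. No 2 of the marked matches overlap. Among 32851 promoter windows of this length, GAGGAA was present in 23.3%, CAGGTG in 17.2%, CCCNNGGG in 11.8% and ATGCAAAT in 1.60%. The octamer letters were in none of the 8 windows that could be matched to the 9 genes, and Ms4a1 had no entry. Fcrl1 had 2 GAGGAA matches, Fcrla 1 GAGGAA and 1 CAGGTG, Cr2 1 CAGGTG, and Bank1 1 CAGGTG and 1 CCCNNGGG. The printed Fcrla window thus shares motif letters with the other 3, and a match is a description of the letters and not a binding site.

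Ms4a1 (ENSMUSG00000024673, chr19:11249675-11266241, minus strand, GRCm38) encodes CD20, a membrane-spanning protein of the mature B cell surface. It had 5.87 and 41.0 CPM in pro-B and large pre-B-like cells at day 28 and day 0, and 13.6 and 40.2 CPM in small pre-B-like cells. Its day 0 level was 900 CPM (791 to 1020) in the unnamed Vpreb3-high cluster, and mature B-like cells had 554 CPM (472 to 646) at day 28, against 839 CPM (790 to 891) at day 0. In germinal centre B-like cells it reached 1018 CPM (933 to 1108), and in plasma cell-like cells it had 45.3 and 129 CPM. The Vpreb3-high interval overlapped those of both mature B-like and germinal centre B-like cells at day 0, while the intervals of germinal centre B-like and mature B-like cells did not overlap. At day 28, 121 cells of the library carried a Ms4a1 UMI, against 687 at day 0.

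Cr2 (ENSMUSG00000026616, chr1:195136811-195176716, minus strand) encodes the complement receptors CD21 and CD35, which bind complement fragments on antigen. Over all kept cells it had 15 UMIs (0.403 CPM) at day 28 and 220 UMIs (11.6 CPM) at day 0. Small pre-B-like cells held 1 UMI at day 28 and 0 UMIs at day 0, where the floor of 3 UMIs corresponds to 4.02 CPM. Mature B-like cells had 27.5 CPM (11.9 to 54.2) at day 28, against 91.1 CPM (75.3 to 109) at day 0. The day 0 values of the Vpreb3-high cluster (44.1 CPM, 22.8 to 77.0) and of germinal centre B-like cells (30.7 CPM, 17.6 to 49.9) had overlapping intervals. Mature B-like cells thus stood highest at day 0, and the Vpreb3-high interval overlapped theirs slightly.

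Fcer2a (ENSMUSG00000005540, chr8:3681737-3694175, minus strand) encodes CD23, the low-affinity IgE receptor. Its level in mature B-like cells was 27.5 CPM (11.9 to 54.2) at day 28, against 240 CPM (214 to 268) at day 0. The day 28 value rested on 8 UMIs in 3 of 33 cells, 6 of them in 1 cell. At day 0 the Vpreb3-high cluster had 114 CPM (77.4 to 162) and germinal centre B-like cells 96.0 CPM (71.3 to 127), intervals that overlapped each other and lay below that of mature B-like cells.

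Fcmr (ENSMUSG00000042474, chr1:130865669-130880791, plus strand) encodes the Fc receptor for IgM. It had 348 CPM (283 to 422) in mature B-like cells at day 28, against 736 CPM (690 to 785) at day 0. The day 0 Vpreb3-high cluster had 375 CPM (306 to 455) and germinal centre B-like cells 219 CPM (181 to 263). These 3 day 0 levels had intervals that did not overlap, with mature B-like cells highest. Plasma cell-like cells had 18.5 and 133 CPM at day 28 and day 0.

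Fcrl1 (ENSMUSG00000059994, chr3:87376387-87402934, plus strand), an Fc receptor-like surface protein that enhances B cell receptor signals, had 55.1 CPM (31.5 to 89.4) in mature B-like cells at day 28, against 174 CPM (152 to 199) at day 0. Bank1 (ENSMUSG00000037922, chr3:136053363-136326066, minus strand), a cytoplasmic scaffold of B cell receptor signalling, had 99.8 CPM (66.8 to 143) and 379 CPM (346 to 414) in the same cells. At day 0 both genes were lower in the Vpreb3-high cluster (88.2 and 220 CPM) and in germinal centre B-like cells (90.2 and 129 CPM). The Fcrl1 levels of those neighbouring classes had overlapping intervals, and the Bank1 levels did not.

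Cd22 (ENSMUSG00000030577, chr7:30865402-30880342, minus strand) encodes a sialic acid-binding receptor that recruits the phosphatase SHP-1 (Ptpn6) and restrains the B cell receptor. It had 20.9 CPM (14.3 to 29.5) in pro-B and large pre-B-like cells at day 28, against 18.8 CPM (9.38 to 33.6) at day 0, from 32 and 11 UMIs. In erythroid-like cells, which should lack it, it had 0.248 CPM (0.00627 to 1.38) and 4.26 CPM (1.71 to 8.78). Mature B-like cells had 68.8 CPM (42.0 to 106) and 134 CPM (115 to 155). The day 0 levels of the Vpreb3-high cluster (147 CPM), mature B-like cells and germinal centre B-like cells (106 CPM) had overlapping intervals. Plasma cell-like cells had 1.03 CPM (1 UMI) at day 28 and 22.2 CPM (5 UMIs) at day 0.

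Fcrla (ENSMUSG00000038421, chr1:170917576-170927583, minus strand) encodes an Fc receptor-like protein that stays inside the cell. It had 50.9 and 58.1 CPM in pro-B and large pre-B-like cells and 418 CPM (374 to 464) and 536 CPM (485 to 591) in small pre-B-like cells at day 28 and day 0. Its day 0 level was highest in the Vpreb3-high cluster, at 680 CPM (585 to 785), an interval that slightly overlapped that of small pre-B-like cells. Mature B-like cells had 141 CPM (101 to 191) and 224 CPM (199 to 252), germinal centre B-like cells 165 CPM (132 to 204) at day 0, and plasma cell-like cells 167 CPM (142 to 195) and 222 CPM (165 to 293). Among the B cell stages Fcrla was thus highest in small pre-B-like cells at day 28 and in the Vpreb3-high cluster at day 0, and its mature B-like and plasma cell-like intervals overlapped in each library. It was also carried by plasmacytoid dendritic-like cells, at 149 CPM (122 to 180) at day 28, against 226 CPM (191 to 266) at day 0.

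Ltb (ENSMUSG00000024399, chr17:35194439-35196320, plus strand) encodes lymphotoxin beta, a membrane-anchored ligand of the TNF family that organises lymphoid tissue. It had 282 CPM (224 to 350) in mature B-like cells at day 28, against 624 CPM (582 to 669) at day 0, where germinal centre B-like cells had 565 CPM (502 to 633) and the Vpreb3-high cluster 309 CPM (246 to 382). Most of its UMIs were outside the B cell stages: T or NK-like cells held 35.3% of them at day 28 and 68.3% at day 0, and the B cell stages 22.2% and 24.3%. For Ms4a1 the B cell stages held 73.5% and 76.4%.

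**Figure D1:**
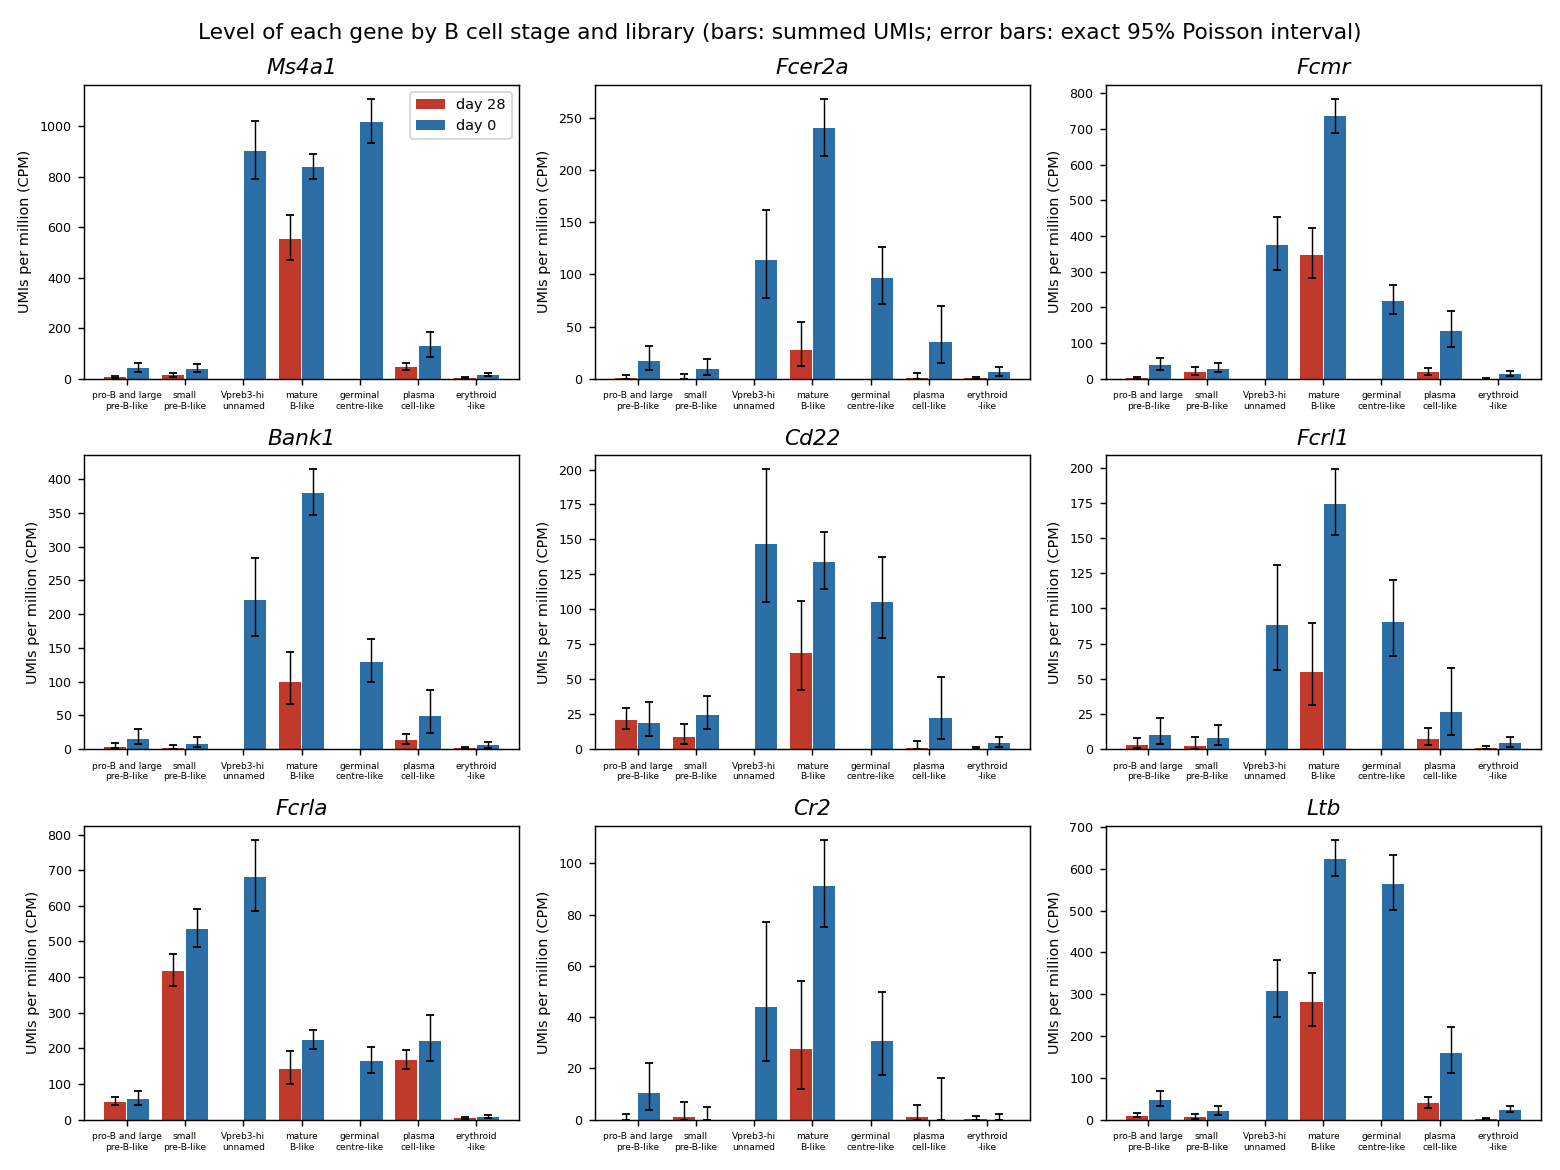
Level of each of the 9 genes in CPM (vertical axes, linear, each with its own range) by B cell stage and in erythroid-like cells, with day 28 to the left of day 0. Bars are CPM of summed UMIs and error bars exact 95% Poisson intervals, there is 1 library per group, and the Vpreb3-high unnamed and germinal centre-like classes had no day 28 cells. Ms4a1, Fcmr, Bank1 and Ltb stand low in the precursor stages and high in mature B-like cells. Fcrla has its highest bar in the Vpreb3-high cluster, at 680 CPM, with an interval that slightly overlaps that of small pre-B-like cells at day 0.

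Low levels have to be read against free RNA, which gives UMIs of a gene in cells that do not make it. Erythroid-like cells, which should lack all 9 genes, had 2.97 CPM of Ms4a1 at day 28 and 14.0 CPM at day 0, and 2.23 and 24.3 CPM of Ltb. With every cell thinned to 3000 UMIs, a Ms4a1 UMI was found in 1.87% of small pre-B-like cells at day 28 and 5.65% at day 0, against 0.493% and 4.62% of erythroid-like cells. The unthinned shares were 2.80% and 8.06% in small pre-B-like cells (median depths 6749 and 5016 UMIs) and 2.96% and 10.0% in erythroid-like cells (17606 and 9532.5 UMIs). At day 0, 10 of the 30 Ms4a1 UMIs of small pre-B-like cells were in 1 cell. For Ltb the thinned day 0 share was 4.03% of small pre-B-like cells and 7.69% of erythroid-like cells, so Ltb there did not stand above background. Fcrla was well above it, with thinned shares of 70.1% and 75.0% in small pre-B-like cells and 0% and 3.08% in erythroid-like cells.

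Mature B-like cells were set against small pre-B-like cells of the day 0 library, the stage before the complete receptor. Of the 9 genes, 8 were at least 2-fold higher in mature B-like cells and 1 at least 2-fold lower, where 9.49% and 27.3% of 4845 genes with a mean of at least 20 CPM were past those limits. The members had been picked as mature B cell genes, so this count is a description of them. Ms4a1 was 20.9-fold higher in mature B-like cells (95% interval 14.5 to 31.1), Fcmr 26.2-fold (17.0 to 42.5) and Bank1 47.1-fold (21.5 to 129). Fcer2a was 25.6-fold higher (12.3 to 64.1), Fcrl1 21.7-fold (9.80 to 59.7) and Ltb 31.05-fold (18.7 to 55.7). Cr2, with 0 UMIs in small pre-B-like cells, was at least 22.6-fold higher against the floor of 3 UMIs over the group. Cd22 differed less, at 5.55-fold higher (3.41 to 9.59), and its interval lay below those of Ms4a1, Fcer2a, Fcmr, Bank1, Fcrl1 and Ltb. Fcrla alone among the 9 was lower in mature B-like cells, with a ratio of 0.418 (0.358 to 0.488). The size of these ratios depended on how the stages were drawn. With each library clustered by itself, where the small pre-B-like class took 200 cells, the ratio was 5.85 for Fcer2a, 5.64 for Ltb, 5.35 for Fcmr, 4.65 for Bank1, 3.96 for Fcrl1, 2.42 for Ms4a1 (2.15 to 2.73), 2.23 for Cd22 (1.67 to 3.01) and 0.409 for Fcrla. With stages from marker UMIs it was 18.2 for Fcer2a, 9.43 for Ms4a1, 9.07 for Bank1, 8.37 for Fcmr, 9.21 for Cd22 (1.61 to 368) and 0.195 for Fcrla. For the genes given, directions held under both, and the place of Cd22 below the others did not. Small pre-B-like cells had Fcer2a at 9.38 CPM, Bank1 at 8.04, Fcrl1 at 8.04 and Ltb at 20.1, and erythroid-like cells of the same library 6.09, 5.48, 4.26 and 24.3 CPM. The part of free RNA in these ratios was not tested.

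**Figure D2:**
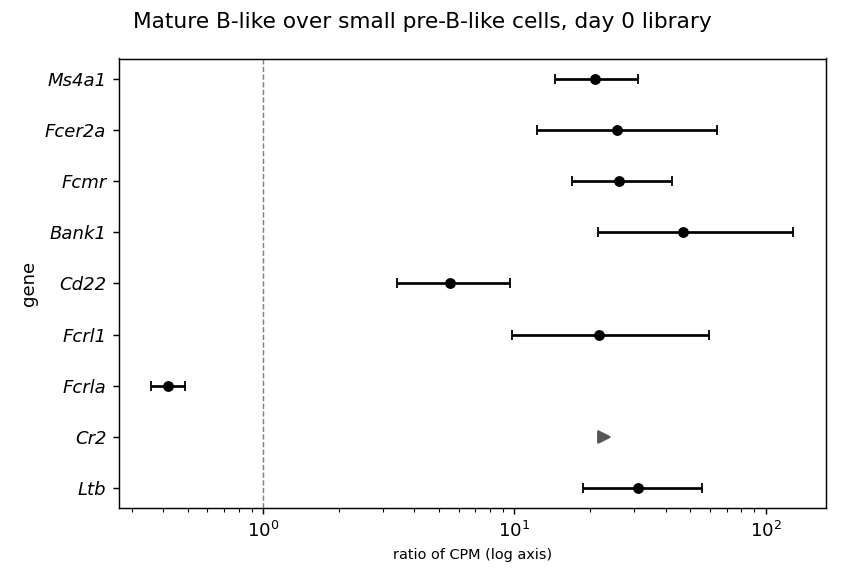
Ratio of CPM in mature B-like over small pre-B-like cells of the day 0 library for each gene (log axis), with exact 95% conditional binomial intervals; the dashed line marks a ratio of 1. Cr2 is drawn as an arrow at its lower bound of 22.6, because small pre-B-like cells had 0 UMIs, and Fcrla is the gene left of the line, at 0.418.

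How the genes combined in single cells also differed between stages. With cells thinned to 3000 UMIs, the median number of the 8 genes other than Ltb detected per cell was 0 in pro-B and large pre-B-like cells and 1 in small pre-B-like cells in both libraries. It was 4 in the Vpreb3-high cluster at day 0, 2 and 4 in mature B-like cells at day 28 and day 0, and 3 in germinal centre B-like cells at day 0. The summed level of these 8 genes was 464 and 654 CPM in small pre-B-like cells, and Fcrla gave 339 of its 377 UMIs at day 28 and 400 of 488 at day 0. In mature B-like cells the sum was 1321 and 2818 CPM. At day 0 the Vpreb3-high cluster had 2568 CPM and germinal centre B-like cells 1853 CPM.

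Genes of related pathways were read in the same contrast at day 0, and all of them were available to the clustering, so their counts are descriptions as well. Cxcr5, Tnfrsf13c, Cd40, Btla, Cd55, H2-Ob, H2-DMb2 and Blk were also among the markers that named the mature B-like class. All 12 measured genes of antigen presentation were at least 2-fold higher in mature B-like cells, with a median log2 ratio of 3.80 against -0.44 over all genes. Among them were Cd86, a costimulatory ligand for T cells (85.6 CPM in mature B-like and 1.34 CPM in small pre-B-like cells), and H2-Oa, which tunes peptide loading of class II molecules (503 and 16.1 CPM). The lowest ratios of that list belonged to Ciita, the class II transactivator, at 4.53, and H2-Ab1, a class II chain, at 7.88. Of 8 measured homing genes 5 were at least 2-fold higher, Gpr183 (138 and 6.70 CPM) and Cxcr5 (57.6 and 4.02 CPM) with the highest ratios. Cxcr4, the receptor that holds precursors in the marrow, had 62.3 and 95.2 CPM and S1pr4 46.7 and 72.4 CPM.

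Antigen receptor signalling genes differed much less, with 1 of 15 measured at least 2-fold higher, 0 lower and a median log2 ratio of 0.12. Cd79a, a signalling chain of the receptor, stood at 2842 and 1566 CPM, and the lowest ratios were those of Cd81 (224 and 256 CPM) and of the adaptor Blnk (198 and 361 CPM). Inhibitory receptors and phosphatases had 2 of 6 measured genes past the limit, Btla at a ratio of 8.27 (3.1 to 31) and Ptpn6 at 2.69 (2.2 to 3.4). The lowest of that list were Siglecg at 0.890 and Cd72 at 0.592. In the survival and BAFF list, 3 of 6 measured genes were at least 2-fold higher, led by Cd40 (64.6 and 1.34 CPM) and Bcl2 (169 and 14.7 CPM), and 1 was lower. That gene, Bcl2l1, which encodes the survival protein Bcl-xL, had 5.45 and 114 CPM in mature B-like and small pre-B-like cells.

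Among B lineage regulators, 5 of 15 measured genes were at least 2-fold higher in mature B-like cells and 3 lower. Notch2 (106 and 14.7 CPM) and Pou2f2 (422 and 69.7 CPM) had the highest ratios, and Zeb2 (59.2 and 166 CPM) and Pou2af1 (142 and 475 CPM) the lowest. All 5 measured precursor B genes were at least 2-fold lower, and Il7r (4.67 and 173 CPM) and Igll1 (11.7 and 334 CPM) were the lowest. Those genes had also defined the precursor stages. Smaller lists had 2 measured genes each. Ms4a4c of the Ms4a family had 113 and 4.02 CPM and Ms4a4b 24.1 and 17.4 CPM, Cd55 of the complement and Fc receptors 151 and 22.8 CPM and Cr1l 57.6 and 63.0 CPM, and Nfkb2 of the lymphotoxin and TNF axis 49.8 and 18.8 CPM and Relb 46.7 and 26.8 CPM.

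In mature B-like cells, all 9 genes had lower levels at day 28 than at day 0, and 6 of the 9 were at least 2-fold lower. Over the 4361 genes with a mean of at least 20 CPM, 10.2% were lower and 8.71% higher by that factor, and the median log2 ratio was 0.01 for all genes and -1.15 for the 9. Fcer2a had the lowest ratio, 0.115 (0.0491 to 0.229), followed by Bank1 at 0.263 (0.174 to 0.383), Cr2 at 0.302 (0.128 to 0.615) and Fcrl1 at 0.316 (0.177 to 0.524). Ltb had a ratio of 0.452 (0.356 to 0.568) and Fcmr 0.472 (0.381 to 0.580). Cd22 at 0.514 (0.306 to 0.819), Fcrla at 0.629 (0.442 to 0.875) and Ms4a1 at 0.660 (0.556 to 0.780) were above the 2-fold limit. The Fcer2a and Bank1 intervals lay below that of Ms4a1, so the genes were not lower by the same factor. Other B cell lists were lower too, with a median log2 ratio of -1.12 for homing genes (5 of 8 at least 2-fold lower), -1.09 for antigen presentation (7 of 12) and -0.91 for B lineage regulators (5 of 15). The pan-B markers stood at 4157 and 8278 CPM and the mature B markers at 1063 and 2433 CPM at day 28 and day 0.

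The 33 day 28 cells set the limit of this comparison. The 2 deepest of them, with 38140 and 41790 UMIs, held 27.5% of the stage's UMIs, and mature B-like cells of day 28 also carried more of the neutrophil markers (461 CPM, 6 of 7 genes with a UMI) than those of day 0 (103 CPM, 6 of 7) and more of the monocyte or macrophage markers (344 and 102 CPM, 6 of 7 each). Plasma cell markers stood at 1252 and 908 CPM and germinal centre markers at 68.8 and 29.6 CPM. The range per cell was 0 to 21 neutrophil marker UMIs at day 28 and 0 to 5 at day 0, and the part of these markers in the result was not tested. With those 2 cells left out and day 0 cells held to the lowest day 28 total, which left 31 and 99 cells, Fcer2a had a ratio of 0.0506 (0.00606 to 0.186), Cr2 0.193 (0.0512 to 0.518), Fcrl1 0.265 (0.118 to 0.521) and Bank1 0.312 (0.189 to 0.489). In the same cells the ratio was 0.836 (0.685 to 1.01) for Ms4a1, 0.895 (0.611 to 1.28) for Fcrla, 0.566 (0.296 to 1.01) for Cd22, 0.760 (0.605 to 0.947) for Fcmr and 0.632 (0.479 to 0.823) for Ltb. Thus 4 genes remained at least 2-fold lower, Ltb and Fcmr were no longer past that limit, and the intervals of Ms4a1, Fcrla and Cd22 reached 1. Both restrictions were chosen after seeing the data.

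Shares of cells with a UMI were lower at day 28 for the genes with the lowest and the highest ratio alike. A Ms4a1 UMI was found in 69.7% of mature B-like cells at day 28 and 89.7% at day 0 after thinning, against 87.9% and 93.8% without it. For Fcer2a the thinned shares were 6.06% and 48.2%, and the unthinned ones 9.09% and 55.9%. Bank1 had thinned shares of 24.2% and 62.5%, and Fcmr 72.7% and 83.1%. The median depths were 6194 UMIs at day 28 and 3769.5 UMIs at day 0, and the part of depth in these shares was not tested.

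**Figure D3:**
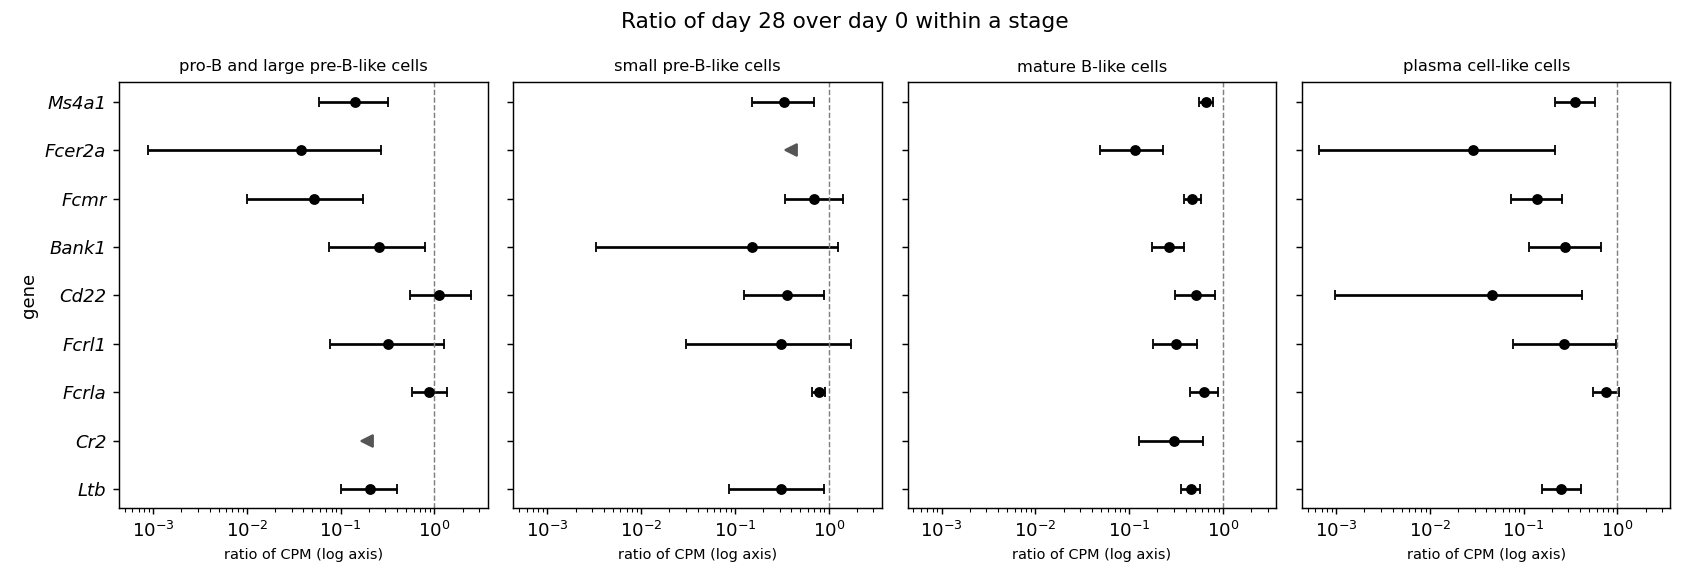
Ratio of CPM at day 28 over day 0 for each gene within 4 B cell stages (shared log axis), with exact 95% conditional binomial intervals; the dashed line marks 1, arrows mark upper bounds where a library had 0 UMIs, and genes with fewer than 4 UMIs in all are left out. In mature B-like cells all 9 points lie left of the line, from 0.115 for Fcer2a to 0.660 for Ms4a1, while Fcrla lies at 0.877 in pro-B and large pre-B-like cells and at 0.779 in small pre-B-like cells.

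In small pre-B-like cells only Ms4a1, Fcmr and Fcrla of the 9 genes reached the mean of 20 CPM. Of these 3, Ms4a1 was at least 2-fold lower at day 28 (ratio 0.337, 0.152 to 0.692), where 3.87% of 4759 genes were. Fcrla, with 339 UMIs at day 28 and 400 at day 0, had a ratio of 0.779 (0.672 to 0.902), and Fcmr 0.700 (0.342 to 1.41). The Ms4a1 UMIs came from 2.80% of cells at day 28 and 8.06% at day 0, and from 1.87% and 5.65% after thinning. Erythroid-like cells also had less Ms4a1 at day 28 (2.97 CPM) than at day 0 (14.0 CPM), and the part of free RNA in the difference was not tested.

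The pathway lists moved little between the libraries in small pre-B-like cells. Of the 10 lists, 6 had 0 measured genes past 2-fold in either direction, and the Ms4a family had 0 measured genes. Antigen presentation had 3 of 7 measured genes at least 2-fold lower at day 28, among them Cd74, the class II invariant chain, at 296 and 1025 CPM with a ratio of 0.288 (0.25 to 0.33), and H2-DMb2 at 11.1 and 29.5 CPM. Erythroid-like cells also had less H2-DMb2 at day 28 (1.49 CPM) than at day 0 (13.4 CPM), and the part of free RNA in these differences was not tested. H2-Ob (38.2 and 46.9 CPM) and H2-DMa (43.1 and 75.1 CPM) had the highest ratios of that list. Antigen receptor signalling had 1 of 14 lower, Plcg2 at 25.9 and 59.0 CPM, with Cd81 (166 and 256 CPM) next to it and Bcl10 (102 and 87.1 CPM) and Blk (128 and 119 CPM) at the other end. Fcer1g, a signalling chain shared with myeloid cells, was the 1 gene at least 2-fold higher, at 53.0 and 6.70 CPM, and Cr1l of the same list had 50.5 and 63.0 CPM. In the same cells neutrophil markers stood at 429 and 115 CPM (7 of 7 genes each) and monocyte or macrophage markers at 149 and 80.4 CPM (6 of 7 and 5 of 7), and their part in the Fcer1g difference was not tested.

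The other lists stayed within 2-fold in these cells. Among precursor B genes Il7r had a ratio of 1.05 and Cd93 0.953, and Rag2 and Igll1 had the lowest, 0.749 and 0.686. Zeb2 at 1.38 and Bach2 at 1.34 were the highest among B lineage regulators, with Spib at 0.660 and Ikzf3 at 0.501 the lowest. Fcgr2b (1.13) and Inpp5d (0.935) were the highest of the inhibitory list and Ptpn6 (0.747) and Siglecg (0.716) the lowest. In the survival list Tnfrsf13b had 1.02, Tnfrsf13c 0.866, Mcl1 0.735 and Bcl2l1 0.530. Homing genes ran between 0.80 for Ccr7 and 0.579 for S1pr4, with Klf2 at 0.597, and Relb of the lymphotoxin axis had 0.597.

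Pro-B and large pre-B-like cells had 3 of the 9 genes at the mean of 20 CPM, Ms4a1, Fcrla and Ltb, and 2 of them were at least 2-fold lower at day 28, where 5.36% of 4704 genes were. Ms4a1 had a ratio of 0.143 (0.0586 to 0.319) and Ltb 0.205 (0.102 to 0.397), while Fcrla stood at 0.877 (0.579 to 1.35). Of the 70 day 0 cells, 8 had at least 30 UMIs of Cd74 and held 72 of the 122 UMIs of the 8 genes other than Ltb, against 0 of 130 cells at day 28. Without those 8 cells, a limit chosen after seeing the data, Ms4a1 had 5.87 CPM at day 28, against 9.40 CPM at day 0, with a ratio of 0.625 (0.188 to 2.37). Fcrla then had a ratio of 1.13 (0.706 to 1.86), Cd22 1.01 (0.496 to 2.22) and Ltb 0.306 (0.142 to 0.652). The Ms4a1 difference in this stage thus rested on those 8 cells, and that of Ltb did not, though erythroid-like cells too had 2.23 CPM of Ltb at day 28 and 24.3 CPM at day 0.

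Plasma cell-like cells had 5 of the 9 genes at the mean of 20 CPM, and 4 of them, Ms4a1, Fcmr, Bank1 and Ltb, were at least 2-fold lower at day 28, where 7.43% of 4387 genes were lower and 7.98% higher by that limit. Fcmr had a ratio of 0.139 (0.0731 to 0.258), Ltb 0.251 (0.156 to 0.407), Bank1 0.274 (0.113 to 0.676) and Ms4a1 0.352 (0.215 to 0.583). Fcrla had a ratio of 0.752 (0.544 to 1.05). These sums rested on 27 cells at day 0, and 9 of the 36 Ltb UMIs there were in 1 cell. The mature B markers stood at 242 CPM in plasma cell-like cells at day 28 (10 of 10 genes with a UMI) and at 568 CPM at day 0 (9 of 10). T cell markers stood at 112 and 400 CPM (11 of 11 genes each) and neutrophil markers at 8672 and 5174 CPM (7 of 7 and 6 of 7). At day 0, 1125 of the 1165 neutrophil marker UMIs were in 1 cell, and the median cell had 1, against 7 at day 28. The part of these markers in the result was not tested.

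The second setting in which the genes were read was T-like cells that carried B cell RNA. T-like cells were those of the T or NK-like clusters with at least 1 UMI of Cd3d, Cd3e or Cd3g, a condition added after seeing the data, and numbered 86 at day 28 and 1046 at day 0. B cell RNA was counted from 7 genes that are not among the 9, with Cd79a, Cd79b, Ebf1, Pax5, Ly6d and Blk among them. At least 2 UMIs of them were found in 15 T-like cells at day 28, 17.4% (exact binomial 95% interval 10.1 to 27.1), and in 284 at day 0, 27.2% (24.5 to 29.96). After thinning the shares were 10.5% and 25.3%. In erythroid-like cells the same count was reached by 22.2% at day 28 and 31.5% at day 0 without thinning, at median depths of 17606 and 9532.5 UMIs against 4971 and 3828.5 in T-like cells, and by 1.97% and 6.15% after thinning. In unnamed cluster 4, whose best marker list was the plasmacytoid dendritic one, it was reached by 20.8% and 33.7% after thinning. In plasmacytoid dendritic-like cells the thinned shares were 81.5% and 86.2%. A count of at least 2 UMIs was thus not particular to T-like cells. Whether those 2 classes make some of the 7 genes themselves was not tested.

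The counts per cell fell into separate ranges at day 0. Of the 1046 cells, 558 had 0 UMIs of the 7 genes and 204 had 1, only 3 had 4 to 6, and 202 had 11 or more. At least 4 UMIs were found in 10 cells at day 28 (11.6%, 5.72 to 20.3) and in 225 at day 0 (21.5%, 19.1 to 24.1), and after thinning in 8.14% and 20.9%, against 0.985% and 3.08% of erythroid-like cells. Other classes varied at day 0 after thinning, with 28.6% in unnamed cluster 4 and 50% of 12 fibroblast-like cells. The share was 8.76% in unnamed cluster 3, 5.71% in basophil-like, 4.60% in unnamed cluster 2, 3.81% in monocyte or macrophage-like and 1.37% in neutrophil-like cells. The T-like cells with at least 4 UMIs were concentrated in clusters. The 7 genes were available to the clustering, so this concentration is a description. At day 0, 171 of 215 T-like cells of cluster 9 (79.5%) and 50 of 86 of cluster 15 (58.1%) had at least 4 UMIs, against 2 of 542 in cluster 1 and 2 of 203 in cluster 7. The leading genes of cluster 9 included Cd3g, Tnfrsf4 and Cd28 and those of cluster 15 Icos, Cxcr6 and Il17f. Those of cluster 1 included Cd8b1 and Dapl1 and those of cluster 7 Ccl5 and Klrd1. Some leading genes were shared, as Ccl5 was also among the 10 leading genes of clusters 9 and 15, and Cd8b1 among those of cluster 9. A Tnfrsf4 UMI was found in 17.8% of the 225 cells with at least 4 UMIs. In the 69 T-like cells of clusters 9 and 15 with 0 or 1 UMIs the share was 50.7%. For Icos these shares were 40% and 68.1% and for Il17f 14.7% and 26.1%. The other way went Cd8b1, at 38.7% and 11.6%, and Dapl1, at 23.1% and 10.1%.

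**Figure D4:**
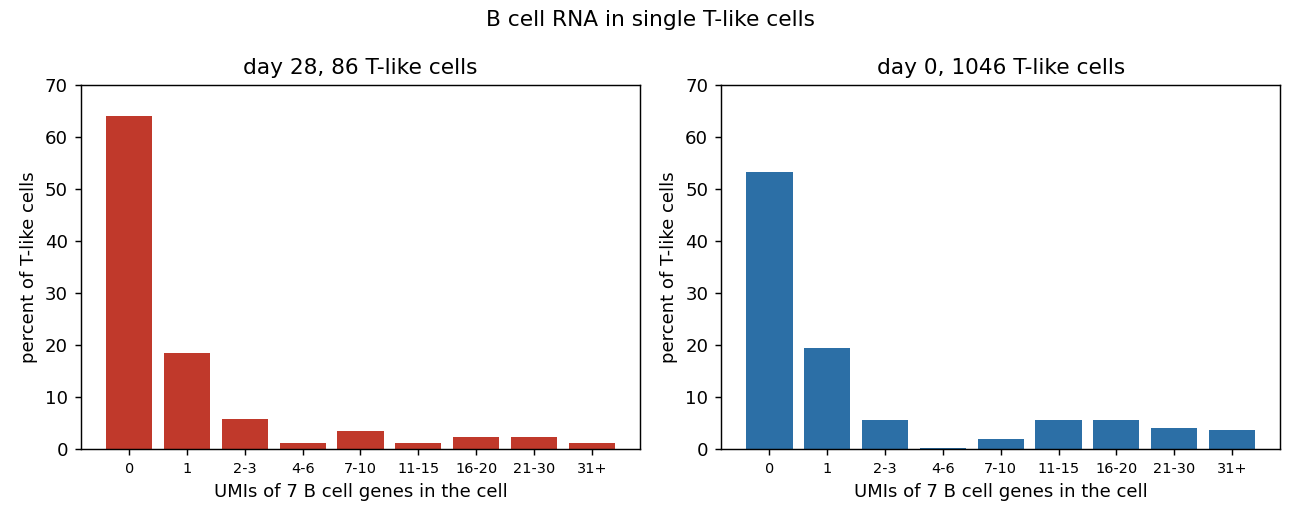
Percent of T-like cells (vertical axis) by the number of UMIs of the 7 B cell genes in the cell (horizontal axis), for 86 cells at day 28 and 1046 cells at day 0. At day 0 the bars fall to 3 cells at 4 to 6 UMIs and rise again to a second group at 11 and more, and at day 28 the bars beyond 3 UMIs hold 10 cells.

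The 284 day 0 cells with at least 2 such UMIs carried the members at levels far above those of the other 762 T-like cells. Ms4a1 had 258 CPM (234 to 284) in them and 5.86 CPM (3.47 to 9.26) in the other T-like cells, a ratio of 44.1 (27.5 to 75.1). Fcmr had 221 and 5.53 CPM, Fcer2a 96.9 and 2.93 CPM, Bank1 130 and 4.88 CPM and Cd22 52.5 and 4.23 CPM. Fcrl1 had 65.0 and 4.88 CPM, Fcrla 93.7 and 4.23 CPM and Cr2 28.1 and 0.651 CPM, the last from 45 and 2 UMIs. Within the 284 cells these UMIs lay almost wholly in the 225 with at least 4 UMIs of the 7 genes. Those 225 held 413 of the 413 Ms4a1 UMIs, 352 of 354 for Fcmr and 148 of 150 for Fcrla. The 59 cells with 2 or 3 UMIs of the 7 genes thus held almost no RNA of the 8 members other than Ltb. Of the 8 members at the mean of 20 CPM, Cr2 being the one under it, 7 were at least 2-fold higher, where 6.13% of 4292 genes were higher and 0.396% lower by that limit. The sum of the 8 genes other than Ltb was 945 and 33.2 CPM, a ratio of 28.5 (23.3 to 35.2), and erythroid-like cells of the same library had 54.8 CPM. The 2 groups of T-like cells were split by their B cell RNA, so these counts and ratios are descriptions. The low level in the other T-like cells follows in part from that split. Erythroid-like cells were not split in this way, so the 2 levels are not directly comparable.

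Ltb, which T cells are known to make as well, differed less. It had 812 CPM (768 to 857) in the cells with B cell RNA and 716 CPM (687 to 747) in the other T-like cells, a ratio of 1.13 (1.06 to 1.21), and mature B-like cells had 624 CPM. In the 225 T-like cells with at least 4 UMIs of the 7 genes, all but 4 of them in clusters 9 and 15, it had 870 CPM (819 to 922), and in the 69 T-like cells of those clusters with 0 or 1 it had 956 CPM (859 to 1061). The intervals of these last 2 values overlapped.

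In the 225 cells with at least 4 UMIs the members other than Ltb stood below their mature B-like levels, by factors that varied between genes. The 8 genes other than Ltb stood at 37.1% (Fcmr) to 51.2% (Fcrla) of their mature B-like level, with a median of 44.0%, and the 7 genes that chose the cells at 32.8% to 59.4%, with a median of 45.8%. Cd74 stood at 41.3% and the class II gene H2-Aa at 40.6%. The median cell had 5 UMIs of the 8 genes, against 12 in mature B-like cells. Vpreb3 had 230 CPM (205 to 258) in these cells and 215 CPM (190 to 242) in mature B-like cells, and the germinal centre gene Rgs13 had 0 UMIs in them.

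Other measures moved with B cell RNA in these T-like cells. The 225 cells had a median of 5023 UMIs and a median doublet score of 0.0297, the other T-like cells 3638.5 UMIs and 0.0125, and mature B-like cells 3769.5 UMIs and 0.00493. The T cell genes Cd3d, Cd3e and Cd3g had 559, 349 and 568 CPM in the 225 cells, and 951, 471 and 739 CPM in the other T-like cells. Per cell the medians were 7 and 8 UMIs of the 3 genes together. Among T-like cells with at least the lowest day 28 total, 202 of 412 at day 0 (49.0%) had at least 2 UMIs of the 7 genes. The part of depth and of droplets that held 2 cells was not tested.

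**Figure D5:**
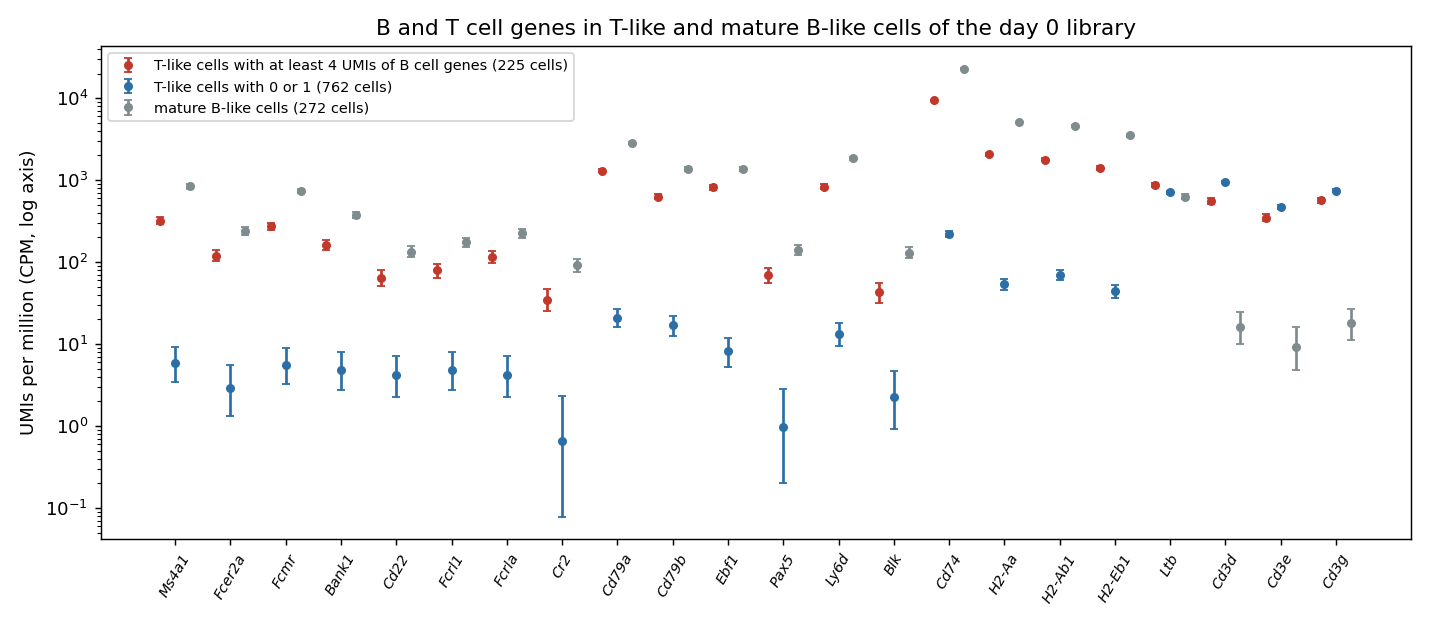
Level in CPM (log axis) of the members, 6 of the 7 B cell genes that chose the cells, class II genes and T cell genes at day 0, in 225 T-like cells with at least 4 UMIs of the 7 genes (red), 762 T-like cells with 0 or 1 (blue) and 272 mature B-like cells (grey), with exact 95% Poisson intervals. The red points lie under the grey ones for the 8 members other than Ltb, at 37.1% to 51.2%, and for the 6 B cell genes and class II genes drawn. Ltb is at 870, 716 and 624 CPM.

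At day 28 the 15 T-like cells with B cell RNA had 88.2 CPM of Ms4a1 (45.6 to 154, 12 UMIs) and 36.8 CPM each of Fcmr and Fcrla (5 UMIs each), and the other 71 T-like cells had 0 UMIs of these 3 genes, where the floor of 3 UMIs corresponds to 6.71 CPM. Ltb had 537 CPM (421 to 675) and 293 CPM (245 to 348). The sum of the 8 other genes was 198 and 4.47 CPM at day 28, beside the 945 and 33.2 CPM of day 0. Too few cells were present for the other members to be read singly.

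Across 34 sums of a cluster within a library with at least 20 cells, the members other than Fcrla and Ltb had closely similar patterns. Pearson's r of log2(CPM + 10) was 0.97 for Fcmr and Fcrl1 and 0.97 for Ms4a1 and Fcmr, and lowest, at 0.34, for Fcrla and Ltb. Among 4903 genes with a mean of at least 20 CPM, Gm43603, a gene for which no position or role is given here, was most like Ms4a1 (0.95), Fcer2a (0.94), Fcmr (0.96), Bank1 (0.97), Cd22 (0.92), Fcrl1 (0.97) and Cr2 (0.96). The next genes were H2-DMb2 and H2-Ob, which act in peptide loading of class II molecules, with Scd1 in place of H2-Ob for Bank1 and Fcrl1 and Pxdc1 in its place for Cr2. Fcrla was most like Blnk (0.94), Sdc4 (0.92) and Irf4 (0.91), and Ltb most like the T cell adhesion gene Cd2 (0.95), Gm8369 (0.94) and Traf1 (0.92). The sums share libraries, depth and free RNA, so these values describe likeness in these 2 libraries.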

How the data were processed

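The deposited values were raw UMI counts for each gene and barcode, whole numbers throughout. Cell Ranger 2.1.1, STAR and genome build mm10 are named in the submitters' processing notes. How barcodes were chosen is not given in the sources used here.

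Barcodes with fewer than 500 genes or over 10% mitochondrial UMIs were removed (17 at day 28 and 2 at day 0). Scrublet, run per library in scanpy 1.11.5, marked 0.339% and 0.150% by its automatic threshold, under a working minimum, so the top-scoring 56 and 56 barcodes were left out instead, the number expected at the usual doublet rate for this many barcodes. This left 2580 and 2610 cells. Clustering used log values of counts scaled to 10000 per cell. With the 9 members removed, 2000 variable genes, 30 principal components and 20 neighbours gave 21 Leiden clusters (leidenalg 0.10.2, resolution 0.8, seed 1), without batch integration.

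Clusters took the name of the best of 19 marker lists, none holding a member, by mean log2(CPM + 10) above the other clusters' median. A cluster stayed unnamed with under 3 markers in 10% of cells, when another class had as many markers among its 10 leading genes, or, for B cell stages, when the best 2 stage scores lay within 0.5. These limits were set after seeing the data, and clusters 2, 3 and 4 also stayed unnamed.

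UMIs were summed per class and library. Exact 95% intervals were Poisson for levels, conditional binomial for ratios and Clopper-Pearson for shares. A class with 0 UMIs was placed at a floor of 3 UMIs. Ratios used stages that held at least 20 cells on both sides, and counts of genes past 2-fold used genes at a mean of at least 20 CPM. With 1 library per group no test was made and no p-value is given. Cells were thinned to 3000 UMIs for shares. The ratio calculation was tested on simulated counts.

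Named genes are the 9 members, the 3 genes most like each member, and in each of 10 pathway lists the 2 highest and 2 lowest ratios of mature B over small pre-B cells at day 0 and of day 28 over day 0 in small pre-B cells. Some genes that these rules or lists hold, 1 of the 7 B cell RNA genes among them, entered the counts but are not reported here. Members and lists were chosen with earlier results of these data known. Coordinates are from GENCODE M21 (GRCm38), promoter sequences from RefSeq (GRCm38.p6), and 8 of 9 members were matched to the promoter table. Alternatives were the clustering with members kept, other resolutions, libraries clustered apart, no doublet or gene filter, per-cell means, thinning, stages from marker UMIs, and other limits for B cell RNA.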

Additional observations from a re-analysis of the deposited data

How the results depend on the processing

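In mature B-like and small pre-B-like cells no direction reversed under the alternatives that gave a value. In pro-B and large pre-B-like cells the Fcrla ratio of 0.877 was 1.13 without the 8 day 0 cells rich in Cd74, and both intervals held 1, while Bank1, with 6 UMIs at day 28 and 9 at day 0 (ratio 0.255, 0.0746 to 0.801), then had 6 and 0 UMIs. In all, 26 of the 36 recomputed main values moved by less than their counting interval. The ratio of mature B-like over small pre-B-like cells at day 0, 4.31 for the 8 genes summed without Ltb, was 2.22 with each library clustered by itself, where the small pre-B-like class took 200 cells, 1.86 with stages from marker UMIs and 3.78 with day 0 cells held to the lowest day 28 total. The mature B-like ratio of day 28 over day 0, 0.469, was 0.553 as a mean of per-cell CPM, 0.576 with thinned cells, 0.536 with day 0 cells held to the lowest day 28 total and 0.541 without the 2 deepest day 28 cells. Fcer2a ran between 0.0396 and 0.159 and Ms4a1 between 0.593 and 0.841 over 11 alternatives. The share of day 0 T-like cells with B cell RNA, 27.2%, was 46.7% at 1 UMI or more, 21.5% at 4 or more and 49.0% among cells no shallower than the lowest of day 28. The cause of these shifts was not tested beyond the limits named. Of 203 single-gene values, 23 moved. Keeping the members among the variable genes or resolution 0.4 left no small pre-B-like class and so no value. For small pre-B-like cells between the libraries, clustering the libraries apart and marker UMIs also left fewer than 20 cells in a library. No paired analysis was possible because each group has 1 library. Cr2, Fcer2a, Fcrl1 and Bank1 rested on few UMIs in precursor cells, and the 33 mature B-like cells of day 28 limit every ratio of that stage.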

Other observations

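In several other classes the 8 genes other than Ltb were low, and lower at day 28. Their summed level was 7.03 CPM at day 28 and 58.6 CPM at day 0 in monocyte or macrophage-like cells, 8.31 and 27.6 CPM in neutrophil-like cells and 7.74 and 56.1 CPM in basophil-like cells. Plasmacytoid dendritic-like cells stood apart at 182 and 316 CPM, most of it from Fcrla. A Fcrla UMI was found in 28.9% of these cells at day 28 and 41.3% at day 0 after thinning, against 0% and 3.08% of erythroid-like cells, and the B cell genes used for T-like cells reached 4 UMIs in 68.1% and 71.7% of them.

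The Vpreb3-high unnamed cluster of day 0 combined precursor and mature genes. It carried Rag1 at 73.5 CPM (20 UMIs), against 13.4 CPM in small pre-B-like and 0 CPM in mature B-like cells of that library, and H2-Ob at 246 CPM, against 46.9 and 421 CPM. Other precursor markers ran both ways against small pre-B-like cells. Sox4 (643 and 562 CPM) and Cd93 (91.8 and 72.4 CPM) were higher in the cluster. Rag2 (25.7 and 36.2 CPM), Cd24a (1782 and 4576 CPM), Igll1 (73.5 and 334 CPM), Il7r (121 and 173 CPM) and Vpreb1 (110 and 256 CPM) were lower. Among the 66 cells of the cluster the thinned share with a UMI was 71.2% for Ms4a1 and 84.8% for Fcrla.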
